A study of Homo sapiens with 6 samples.

Results

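Kynurenine pathway genes were examined in SK-Hep1 cells, an established human line derived from a liver adenocarcinoma, treated with an inhibitor of the microRNA miR-21. The 10 genes were KMO, KYNU, IDO1, TDO2, AFMID, KYAT1, KYAT3, HAAO, QPRT and ACMSD. Every probe set that the platform annotation assigns to 1 of them was taken, which gave 19 probe sets of 54675 on the array. A probe set is a group of short probes on the array that reads 1 transcript region, and none of the 19 listed a second gene. The anti-miR-21 group comprised 3 samples of cells that received 20 nM of the anti-miR-21 oligonucleotide with a transfection lipid and were collected 16 hours later. The mock group comprised 3 samples taken through the lipid transfection without the oligonucleotide, named a PBS mock in the design text. Both groups came from the same line, and each sample was hybridised to its own array. The molecule is labelled as total RNA, although the collection protocol cites an Argonaute immunoprecipitation procedure, and which of them describes the hybridised RNA could not be settled.

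The kynurenine pathway is the main route by which cells break down tryptophan, and in mammals the liver carries most of it. TDO2 or IDO1 opens the indole ring, AFMID removes a formyl group to give kynurenine, KMO hydroxylates kynurenine, KYNU cleaves it, and HAAO and QPRT carry the product towards NAD. KYAT1 and KYAT3 divert kynurenine to kynurenic acid, and ACMSD diverts a late intermediate away from NAD. Kynurenine is also a ligand of the aryl hydrocarbon receptor, and IDO1 is a classical interferon-γ-induced gene.

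The upstream sequences of KMO, KYNU and TDO2 are shown because these kept genes include the largest shift in the pathway, the enzyme after it and the entry enzyme. RefSeq promoters on GRCh38.p14 matched 8 of the 10 genes (not IDO1 or ACMSD), and the 250 bases before the annotated start are printed on the plus strand, 5′ to 3′. They lie at chr1:241532128-241532377, chr2:142877414-142877663 and chr4:155903446-155903695. Capitals mark matches on either strand to 4 motifs. TATAAA is the core of the TATA box. The AP-1 element was searched as TGANTCA. The GAS element of interferon-γ signalling was searched as TTCNNNGAA. The core of the aryl hydrocarbon receptor element is GCGTG, which none of the printed windows held.
KMO: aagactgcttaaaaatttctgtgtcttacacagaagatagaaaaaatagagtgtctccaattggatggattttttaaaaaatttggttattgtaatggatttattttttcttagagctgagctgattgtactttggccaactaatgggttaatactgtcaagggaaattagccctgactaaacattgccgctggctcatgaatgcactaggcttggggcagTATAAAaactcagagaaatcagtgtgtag
KYNU: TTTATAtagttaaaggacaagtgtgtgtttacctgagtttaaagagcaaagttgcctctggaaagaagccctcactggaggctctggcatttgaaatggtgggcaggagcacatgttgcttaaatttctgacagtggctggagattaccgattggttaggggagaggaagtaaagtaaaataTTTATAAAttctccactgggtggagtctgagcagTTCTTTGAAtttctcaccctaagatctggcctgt
TDO2: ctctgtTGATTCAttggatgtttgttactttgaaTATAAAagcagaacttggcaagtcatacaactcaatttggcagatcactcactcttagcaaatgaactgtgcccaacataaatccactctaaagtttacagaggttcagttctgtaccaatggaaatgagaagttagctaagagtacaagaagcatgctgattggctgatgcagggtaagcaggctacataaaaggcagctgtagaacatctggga
KMO held TATAAA with its first base 29 bases before the start, and none of the other 3 motifs was in this window. KYNU held the TATA box core 66 bases before the start, overlapping a match on the other strand 68 bases before it, and the GAS element 34 bases before it. A further reverse match of KYNU to the TATA box core lay at the far end of the window. TDO2 held the TATA box core 216 bases and the AP-1 element 244 bases before the start. Of 35116 promoter windows of the same length, 10.7% held the TATA box core and 6.57% the AP-1 element. The GAS element was in 6.57% and the aryl hydrocarbon receptor core in 32.2%. Of the 8 matched member genes, 4 held the TATA box core (AFMID, KMO, KYNU and TDO2) and 2 the GAS element (KYAT1 and KYNU). The AP-1 element was in 1 (TDO2) and the aryl hydrocarbon receptor core in 1 (AFMID). These matches are descriptions of letters, and binding was not measured.

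Arrays were much alike, with correlations over kept probe sets of 0.9963 to 0.9983 within groups and 0.9939 to 0.9973 between groups. On the first principal component, which held 50.4% of the variance, anti-miR-21 replicate 1 lay at 3.51, apart from the other anti-miR-21 arrays at 19.6 and 20.1. Mock replicate 1 lay at -7.25, also towards the middle, and the other mock arrays at -16 and -20. Among markers of cell identity, 2 of 15 annotated hepatocyte genes passed the expression rule, SERPINA1 at a mean log2 of 11.92 and TF at 4.02, with CYP2E1 next at 3.55, and the defining markers ALB and TTR at 2.85 and 2.26 did not. Of 12 endothelial genes 3 passed, ROBO4 at 8.29, TEK at 4.66 and CLDN5 at 4.11. The defining PECAM1, CDH5 and VWF at 3.02, 2.88 and 2.27 did not. Of 11 myeloid genes 1 passed, CD14 at 5.30, and PTPRC at 3.21 did not. Of 10 epithelial genes 5 passed, led by KRT18, KRT8 and KRT19, but CDH1 and ESRP1 at 2.39 and 2.47 did not. Of 12 mesenchymal genes 10 passed, led by VIM, FN1 and SNAI2, but COL1A2 and PDGFRB at 2.51 and 2.94 did not. No marker in these lists was called between the groups in limma, and 3 had an unadjusted p under 0.05. Of all 10848 genes with a kept probe set 1966 had one.

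A probe set was taken as expressed, or kept, when its log2 value averaged at least 4 over the 6 arrays. By that rule 11 of the 19 probe sets and 7 of the 10 genes were kept: TDO2, KMO, KYNU, HAAO, QPRT, KYAT1 and KYAT3. IDO1, AFMID and ACMSD were not. The rule ran close to 1 member, KYAT1, whose kept probe set averaged 4.20, and the nearest below it was the KYNU probe set 210662_at at 3.34.

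KMO, the FAD-dependent enzyme of the outer mitochondrial membrane that hydroxylates kynurenine, was lower in anti-miR-21 cells on both of its kept probe sets. Its fall is what drew attention to the pathway, so the pathway was chosen by this contrast and the KMO values are given as a description. Probe set 211138_s_at read 5.78, 5.34 and 5.71 (log2) in the anti-miR-21 arrays, against 6.41, 6.69 and 6.55 in the mock arrays. Every anti-miR-21 array lay below every mock array. The group means were 5.61 ± 0.24 and 6.55 ± 0.14 (SD, n = 3 each), a log2 fold change of -0.94 ± 0.13 (SE), or 1.92-fold lower. The value that singled it out was a limma adjusted p of 0.0217 in the fit across all 22408 kept probe sets, of which 1.07% were called lower and 1.1% higher. In RNA from bulk culture, fewer cells with the transcript and less of it per cell cannot be told apart. Of kept probe sets 0.134% had a log2 fold change at least as low, a rank that follows in part from the choice of KMO by this contrast.

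The second kept KMO probe set, 205306_x_at, was dimmer and more scattered. It read 4.80, 3.96 and 3.88 in the anti-miR-21 arrays, against 5.04, 5.45 and 6.38 in the mock arrays. The groups again did not overlap, but mock replicate 3 stood well above the other mock arrays and anti-miR-21 replicate 1 above its own group. The log2 fold change was -1.41 ± 0.38 (SE, adjusted p = 0.126 in limma), with a 95% confidence interval of -2.33 to -0.50. The anti-miR-21 values of 3.96 and 3.88 lay under 4, the level of the expression rule. The group means were 4.21 and 5.62, so the anti-miR-21 mean lay close to the level of the rule and the size of the fall is uncertain. Its pooled SD within groups, 0.61, was exceeded by 0.147% of kept probe sets, and its suffix marks a design that may cross-hybridise with other transcripts.

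The third KMO probe set, 205307_s_at, lay under the expression rule and did not follow the others. It read 3.19, 3.19 and 3.25 in the anti-miR-21 arrays, against 3.18, 3.15 and 3.10 in the mock arrays. The anti-miR-21 arrays were slightly higher without overlap, as were 4.37% of the 32205 probe sets under the rule, while 0.23% were lower without overlap. At that level GCRMA values hold little information, so this probe set was not tested.

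The KMO shift depended in its call, though not in its direction, on single arrays. For 211138_s_at the log2 fold change was -1.03 without anti-miR-21 replicate 1, an array that stood apart from its group, and -1.71 for 205306_x_at. Without mock replicate 1 the values were -1.01 and -1.705. The adjusted p of 211138_s_at was 0.0722 without anti-miR-21 replicate 3, 0.0918 without mock replicate 2 and 0.0836 without mock replicate 3, and 0.0502 with no expression rule.

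**Figure D1:**
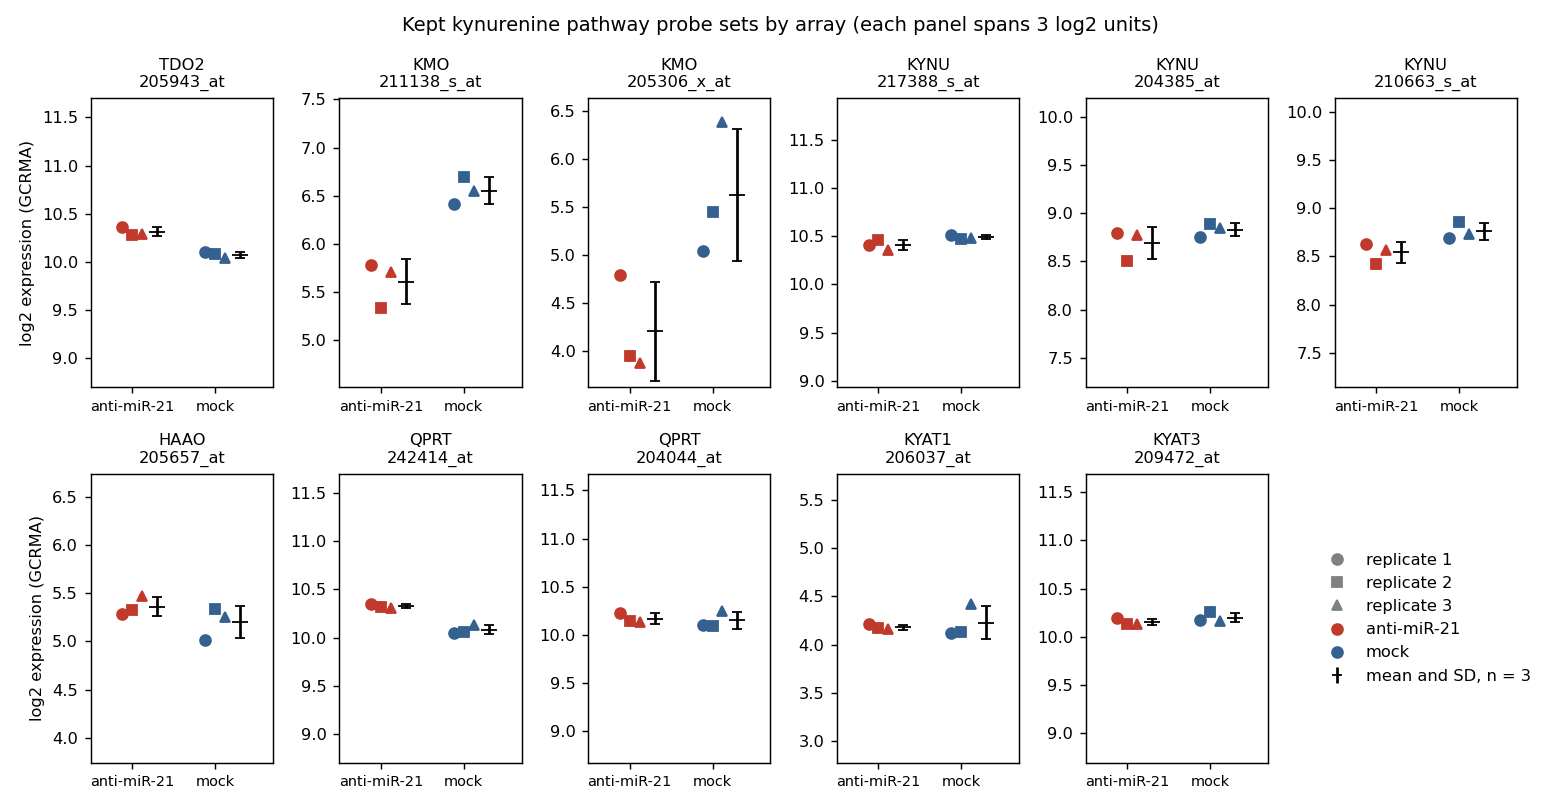
Log2 expression (GCRMA) of the 11 kept kynurenine pathway probe sets, anti-miR-21 arrays in red left of mock arrays in blue, marker shapes for replicates, bars for mean and SD (n = 3), each panel spanning 3 log2 units. Both KMO panels show 3 anti-miR-21 arrays below 3 mock arrays, TDO2 and QPRT 242414_at show small upward offsets, and the other panels show groups that overlap or nearly touch.

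Among the 9 kept probe sets of the other 6 genes, none passed in the limma fit, and 3 had an unadjusted p under 0.05. Of all kept probe sets 2.17% were called and 17.8% had an unadjusted p under 0.05. Groups did not overlap for 2 of the 9 upwards and 2 downwards, beside 11.4% upwards and 12.6% downwards, or 24% in either direction, of all kept probe sets. Their median log2 fold change was -0.0442, against -0.0027 over all kept probe sets, and none reached 1.5-fold.

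TDO2, the haem dioxygenase that starts tryptophan breakdown in liver, had the smallest within-group spread after QPRT 242414_at and KYNU 217388_s_at among the kept members. Probe set 205943_at read 10.36, 10.28 and 10.29 in the anti-miR-21 arrays, against 10.10, 10.08 and 10.04 in the mock arrays. All 3 anti-miR-21 arrays were above all 3 mock arrays. The means of 10.31 ± 0.05 and 10.07 ± 0.03 (SD, n = 3 each) gave a log2 fold change of 0.24 ± 0.05 (SE), 1.18-fold, which did not pass (adjusted p = 0.0718 in limma). Of all kept probe sets 7.11% had a log2 fold change at least as high. The other TDO2 probe set, 231702_at, lay between 2.01 and 2.07 in all arrays. IDO1, the interferon-inducible counterpart of TDO2, read 2.13, 2.16 and 2.15 in the anti-miR-21 arrays, against 2.15, 2.14 and 2.11 in the mock arrays, so it was at the array's low level in both groups. AFMID, the formamidase that follows both dioxygenases, lay between 2.86 and 2.96 on its 1 probe set.

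KYNU, the pyridoxal phosphate-dependent enzyme that cleaves the product of KMO, was slightly lower on average on all 3 kept probe sets, none of which passed. Probe set 210663_s_at read 8.63, 8.43 and 8.57 in the anti-miR-21 arrays, against 8.69, 8.86 and 8.73 in the mock arrays, without overlap. Its log2 fold change was -0.22 ± 0.08 (SE, adjusted p = 0.200 in limma). The brightest, 217388_s_at, read 10.41, 10.46 and 10.36 in the anti-miR-21 arrays, against 10.51, 10.47 and 10.49 in the mock arrays, with a log2 fold change of -0.08 ± 0.05 (SE, adjusted p = 0.450 in limma). These groups were separated by only a narrow gap. Probe set 204385_at overlapped between groups at 8.79, 8.50 and 8.77 in anti-miR-21 and 8.75, 8.89 and 8.84 in mock (log2 fold change -0.14, adjusted p = 0.473 in limma). Its 95% confidence interval was -0.35 to 0.08, and without anti-miR-21 replicate 2 its log2 fold change was -0.04. The dim KYNU probe set 210662_at ranged from 3.18 to 3.46 and overlapped.

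HAAO, the dioxygenase that forms the precursor of quinolinic acid, read 5.29, 5.33 and 5.47 in the anti-miR-21 arrays, against 5.01, 5.34 and 5.25 in the mock arrays. The groups overlapped, and the log2 fold change was 0.16 ± 0.10 (SE, adjusted p = 0.445 in limma). The mock arrays were the more scattered, with mock replicate 1 the lowest, and without it the log2 fold change was 0.06.

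QPRT, which converts quinolinic acid to nicotinic acid mononucleotide, had 2 bright probe sets, neither of which passed. Probe set 242414_at read 10.35, 10.32 and 10.31 in the anti-miR-21 arrays, against 10.05, 10.06 and 10.13 in the mock arrays. The groups did not overlap, and the log2 fold change of 0.25 ± 0.05 (SE) did not pass (adjusted p = 0.0615 in limma). Probe set 204044_at read 10.23, 10.14 and 10.13 in the anti-miR-21 arrays, against 10.11, 10.10 and 10.25 in the mock arrays, which overlapped, with a log2 fold change of 0.02 ± 0.06 (SE, adjusted p = 0.918 in limma).

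The separation of the QPRT probe sets was examined as the difference of 242414_at minus 204044_at within each array. This difference came to 0.12, 0.18 and 0.18 in the anti-miR-21 arrays, against -0.05, -0.04 and -0.12 in the mock arrays, so the groups did not overlap. The shift of 0.23 had a two-sided exact permutation p of 0.1, the smallest that 3 arrays against 3 allow, and 0.5 after Benjamini-Hochberg adjustment over the 5 pairs of kept probe sets within a member gene. For the KMO pair the exact permutation p was 0.4, and for the 3 KYNU pairs it was 0.2 to 0.8. The call of 242414_at also turned on the expression rule, since with a minimum mean of 6 its limma adjusted p was 0.0493.

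None of the kept branch enzymes passed. KYAT3, a transaminase that forms kynurenic acid, read 10.20, 10.13 and 10.14 in the anti-miR-21 arrays, against 10.17, 10.26 and 10.17 in the mock arrays. Its log2 fold change was -0.04 ± 0.05 (SE, adjusted p = 0.700 in limma), with a 95% confidence interval of -0.17 to 0.08. KYAT1, the other transaminase, read 4.21, 4.17 and 4.16 in the anti-miR-21 arrays, against 4.12, 4.13 and 4.42 in the mock arrays on its kept probe set (log2 fold change -0.05, adjusted p = 0.825 in limma). Both groups overlapped in each of these genes, and the sign for KYAT1 rested on mock replicate 3, without which its log2 fold change was 0.05. The other 2 KYAT1 probe sets lay between 1.50 and 2.42. ACMSD, the decarboxylase that competes with the route to NAD, lay between 2.89 and 3.05 and overlapped between groups.

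**Figure D2:**
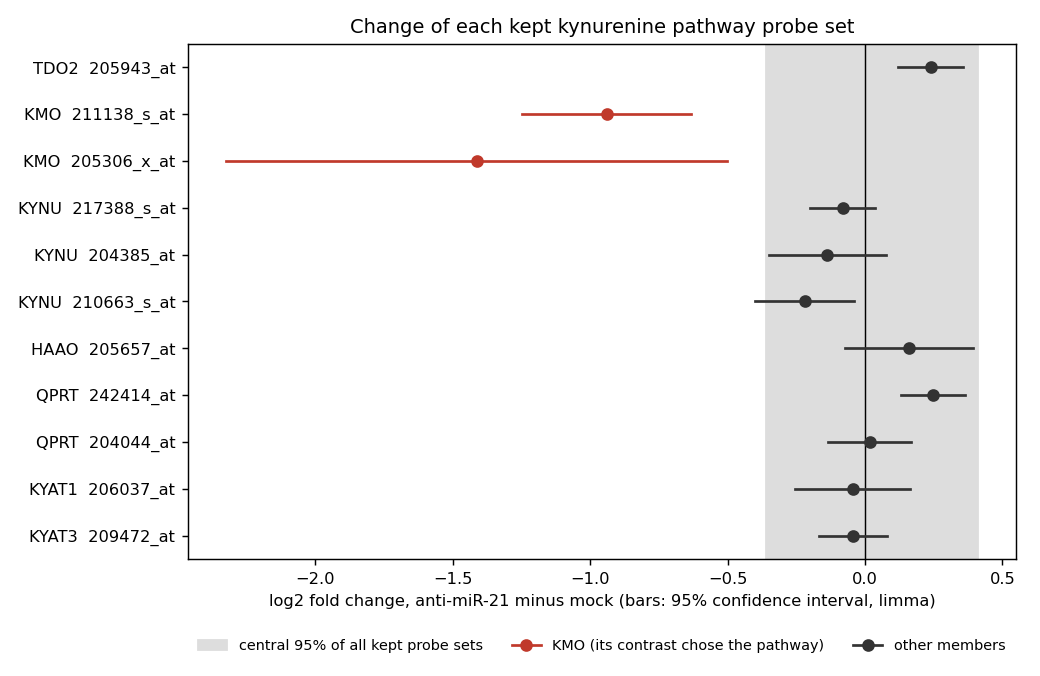
Log2 fold change (anti-miR-21 minus mock) of the 11 kept probe sets with 95% confidence intervals from limma, over a grey band with the central 95% of all kept probe sets (-0.361 to 0.412). The 2 KMO probe sets lie left of the band at -0.94 and -1.41, and the other 9 estimates lie inside it.

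Genes that moved most like KMO were found as those with the smallest Euclidean distance to 211138_s_at over the 6 arrays, each centred on its own mean. The nearest were RNASEH2B, a subunit of ribonuclease H2, PHOSPHO2, a phosphatase, CD163L1, a scavenger receptor, TCHP, a keratin filament-binding protein, and GOLPH3L, a Golgi protein. Their distances were 0.211, 0.319, 0.342, 0.353 and 0.369 log2 units, and their Pearson r with KMO 0.96 to 0.99 across the 6 arrays. All 5 were lower in anti-miR-21 cells, so the likeness includes the difference between the groups. As for KMO 211138_s_at, anti-miR-21 replicate 2 was the lowest array for RNASEH2B, PHOSPHO2, TCHP and GOLPH3L, but not for CD163L1. The other kept KMO probe set, 205306_x_at, was lowest in anti-miR-21 replicate 3. RNASEH2B read 7.45 in anti-miR-21 replicate 2, beside 7.98 and 7.88 in the other anti-miR-21 arrays. PHOSPHO2 read nearly the same in replicates 2 and 3, at 7.59 and 7.60. The genes were chosen over these same arrays, so a shared lowest array follows in part from the choice.

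**Figure D3:**
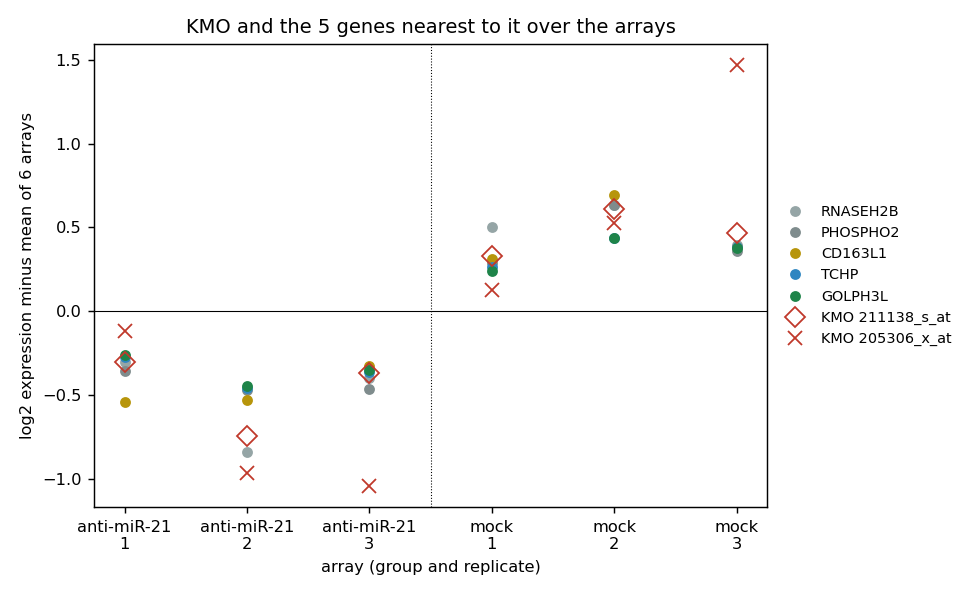
Log2 expression minus the mean of 6 arrays for the 2 kept KMO probe sets (red) and the 5 nearest genes (filled dots), anti-miR-21 arrays left of mock arrays. All 7 are below 0 in the anti-miR-21 arrays, against above 0 in the mock arrays, and KMO 205306_x_at reaches furthest in mock replicate 3.

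The genes around the pathway were read from 8 lists, each gene by its brightest kept probe set. Of 126 genes, 115 were annotated to a probe set of their own and 80 were kept. In the limma fit 1 rose and 1 fell, beside 0.913% of all 10848 genes that rose and 1.22% that fell. The median log2 fold change of the 80 was 0.0172, against -0.0184 over all genes. In limma 14 of the 80 had an unadjusted p under 0.05, against 1966 of the 10848 genes.

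Among 12 kept genes of NAD synthesis and salvage, 1 rose, none fell and 11 did not pass (median 0.0421). NNMT, which methylates nicotinamide and so removes it from salvage, read 13.87, 13.84 and 13.88 in the anti-miR-21 arrays, against 13.42, 13.41 and 13.42 in the mock arrays. The groups were far apart relative to their spread, with a log2 fold change of 0.45 ± 0.04 (SE), 1.36-fold (adjusted p = 0.00906 in limma). Its second kept probe set, 202238_s_at, gave 0.47 ± 0.06 (SE, adjusted p = 0.0175 in limma). The NNMT call was lost without anti-miR-21 replicate 3 (adjusted p = 0.0569) or mock replicate 2 (0.0609).

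NAMPT, the rate-limiting enzyme of nicotinamide salvage, read 12.39, 12.51 and 12.43 in the anti-miR-21 arrays, against 12.26, 12.11 and 11.88 in the mock arrays on its brightest probe set. The groups did not overlap, and the log2 fold change was 0.36 ± 0.10 (SE, adjusted p = 0.128 in limma). Another NAMPT probe set, 217738_at, named after its values were seen, gave 0.62 ± 0.09 (SE, adjusted p = 0.0217 in limma). NMNAT2, which joins the mononucleotide to adenylate, had 0.20 (adjusted p = 0.195 in limma). Among 17 kept NAD consumers none passed, and none had an unadjusted p under 0.05 (limma, median -0.0225). The smallest p values were those of TNKS2, a tankyrase, at 0.16, and of the sirtuin deacetylases SIRT2 and SIRT1 at -0.11 and -0.20 (adjusted p = 0.299, 0.360 and 0.385 in limma).

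The aryl hydrocarbon receptor list held 10 kept genes, all with a positive log2 fold change, as had 43.3% of all genes. None was past the threshold in limma (median 0.0731), and 2 had an unadjusted p under 0.05, beside 1966 of all 10848 genes. CYP1B1, a cytochrome P450 induced by the receptor, read 10.52, 10.83 and 10.53 in the anti-miR-21 arrays, against 10.21, 9.87 and 9.60 in the mock arrays. Its log2 fold change was 0.73 ± 0.16 (SE, adjusted p = 0.0817 in limma), without overlap. Its 2 other kept probe sets, named after their values were seen, gave 0.76 (202436_s_at) and 0.52 (202435_s_at), with limma adjusted p of 0.0117 and 0.0414. Without mock replicate 1 the brightest probe set passed as well (adjusted p = 0.0412). STC2, a secreted glycoprotein, had 0.39 and SLC7A5, a tryptophan importer, 0.18 (adjusted p = 0.148 and 0.392 in limma). STC2 passed without anti-miR-21 replicate 1 (adjusted p = 0.0469). AHR itself had 0.04 and its repressor AHRR 0.03, named as the receptor and its feedback gene. TIPARP, PTGES3 and CYP1A2, named after their values were seen, had 0.01, 0.01 and 0.02. For AHR, AHRR, TIPARP, PTGES3 and CYP1A2 the change was smaller than its SE, so the shared positive sign says little. CYP1A1 at 1.97 and NQO1 at 2.61 were under the expression rule.

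Among other enzymes of tryptophan and kynurenine breakdown, none of 11 kept genes passed in limma, and none had an unadjusted p under 0.05 (median 0.0163). MAOA, a monoamine oxidase, had a log2 fold change of -0.22, GOT2, a mitochondrial transaminase, -0.09, and GCDH, glutaryl-CoA dehydrogenase, 0.12 (adjusted p = 0.340, 0.474 and 0.570 in limma). The other kept GCDH probe set, 208369_s_at, had the opposite sign at -0.19 (adjusted p = 0.341 in limma), and the mean of both gave -0.04. None of 5 kept transport genes passed or had an unadjusted p under 0.05. Beside SLC7A5, the smallest p values there were those of SLC36A4, a tryptophan and proline transporter, at -0.22, and SLC7A11, a subunit of the cystine-glutamate exchanger, at 0.38 (adjusted p = 0.398 and 0.432 in limma). SLC7A11 passed without anti-miR-21 replicate 1 (adjusted p = 0.0385).

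Interferon-γ signalling, which induces IDO1, had 13 kept genes, of which none passed in limma (median -0.00493). An unadjusted p under 0.05 in limma was found for 5 of them, beside 1966 of all 10848 genes. The feedback inhibitors SOCS1 and SOCS3 had log2 fold changes of -0.39 and 0.61 (adjusted p = 0.0888 for both in limma). With all kept probe sets of each gene averaged, the changes were smaller, at -0.20 and 0.36 (adjusted p = 0.125 and 0.0185 in limma). SOCS3 passed without mock replicate 1 (adjusted p = 0.0397). GBP1, an interferon-induced guanylate-binding protein, named after its values were seen, had -0.34 on its brightest probe set (adjusted p = 0.304 in limma), which overlapped between groups. Another GBP1 probe set, 202269_x_at, was lower without overlap at -0.42 ± 0.06 (SE, adjusted p = 0.0259 in limma), and 231577_s_at gave -0.35 (adjusted p = 0.170 in limma). The suffix of 202269_x_at marks a design that may cross-hybridise with other transcripts. IFNGR1, a subunit of the interferon-γ receptor, had 0.23 (adjusted p = 0.108 in limma). Among 9 kept genes of cofactor supply, 1 fell and none rose (median -0.027). PGD, an NADPH-forming enzyme of the pentose phosphate pathway, read 11.73, 11.85 and 11.83 in the anti-miR-21 arrays, against 12.19, 12.12 and 12.20 in the mock arrays. It fell by 0.36 ± 0.06 (SE) on the log2 scale (adjusted p = 0.028 in limma), a call lost with any 1 array left out (adjusted p = 0.0521 to 0.110). FLAD1, which makes the FAD that KMO uses, had -0.32 (adjusted p = 0.0822 in limma), and the isocitrate dehydrogenase IDH1 -0.15 (adjusted p = 0.262 in limma).

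**Figure D4:**
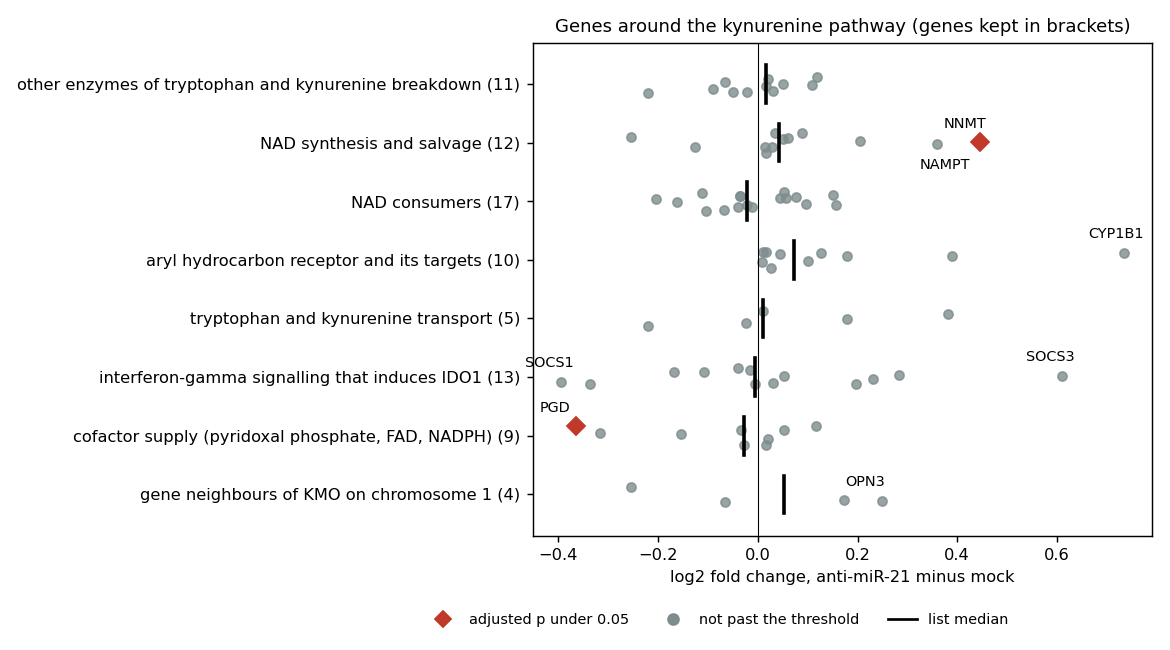
Log2 fold change (anti-miR-21 minus mock) of each kept gene in the 8 lists around the pathway, with the number of kept genes in brackets, bars at list medians and red diamonds at genes with an adjusted p under 0.05. NNMT at 0.45 and PGD at -0.36 are the 2 diamonds, and all 10 aryl hydrocarbon receptor genes lie right of 0, several of them close to it.

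No kept gene beside KMO on chromosome 1 passed the test. OPN3, an opsin gene whose annotated end overlaps that of KMO on the opposite strand in RefSeq (GRCh38.p14), read 10.93, 10.84 and 10.86 in the anti-miR-21 arrays, against 10.57, 10.64 and 10.67 in the mock arrays. Its log2 fold change of 0.25 ± 0.05 (SE) was opposite in sign to that of KMO and did not pass (adjusted p = 0.0747 in limma). This probe set, 219032_x_at, has the suffix of designs that may cross-hybridise. The second OPN3 probe set, 224392_s_at, gave 0.30 (adjusted p = 0.154 in limma). CHML, a Rab escort protein gene, had 0.17 and RGS7, a regulator of G-protein signalling, -0.25 (adjusted p = 0.305 and 0.356 in limma). Of the other kept CHML probe sets, 1565951_s_at gave 0.16 and 206079_at had the opposite sign at -0.12 (adjusted p = 0.444 in limma for 206079_at). Of the 4 kept neighbours 1, OPN3, had an unadjusted p under 0.05 in limma, beside 1966 of all 10848 genes. Whether any KMO or OPN3 probe reads the shared stretch was not tested.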

How the data were processed

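RNA was measured on 6 single-colour arrays. The authors deposited log2 values per probe set, and the submitters' processing notes name GCRMA as the tool. This method uses probe sequence to correct background, then normalizes the arrays and combines probes into probe sets. No version or setting is given in the sources used here. It draws dim values towards a shared low level. No scanner file was used.

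Gene names came from the platform annotation, updated by Entrez identifier to RefSeq (GRCh38.p14). Of 54613 non-control probe sets 41091 had 1 gene, 1801 several and 11721 none. The deposited values were not rescaled. Probe sets with a mean of at least 4 were kept (22408, or 41%). Groups were compared with limma 3.58.1 in R 4.3.3 (lmFit, eBayes, two-sided, Benjamini-Hochberg over kept probe sets, threshold 0.05). A positive log2 fold change means higher in anti-miR-21 cells. The fit was tested on simulated data. Replicates are labelled biological, but nothing says they were separate cultures, so the p values speak of the spread among these samples, which may be technical.

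The members and lists were chosen with earlier results of these data known. Named list genes are those called and the 3 with the smallest p, and for marker lists the 3 with the highest mean, with defining markers added. Likeness to KMO names the 5 nearest genes.

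Same-numbered arrays had deviations from group means correlated at -0.361, -0.266 and -0.002, so the values gave no sign that numbers pair them. Such correlations cannot show whether same-numbered samples were prepared together. Alternatives were no filter, a mean of 6, trended robust eBayes, median centring, a replicate block, averaged probe sets and each array left out.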

Additional observations from a re-analysis of the deposited data

How the results depend on the processing

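With the replicate block the fit called 91 probe sets (54 higher, 37 lower), 0 member probe sets and 0 list genes, against 486, 247, 239, 1 and 2 without it. The KMO log2 fold change was then -0.94 (adjusted p = 0.0995 in limma). The values gave no sign that the numbers pair the samples, but cannot settle it. Without the filter 339 probe sets were called, 158 of them higher, and 0 member probe sets were called. With a minimum mean of 6, 628 probe sets were called, against 486 in the main fit. Among them were 2 member probe sets, KMO 211138_s_at and QPRT 242414_at, so that 1 of the other members was called. With all kept probe sets of a gene averaged, 8 list genes were called (NNMT, PGD, CYP1B1, NAMPT, NMNAT2, FLAD1, OPN3 and SOCS3) and KMO had -1.18. The share of all genes called in that run was not counted, so the 8 cannot be set against a background. With each array left out in turn, 96 to 574 probe sets were called, 47 to 346 higher and 47 to 228 lower, with 0 to 1 member probe sets, 0 to 3 list genes and a KMO log2 fold change of -1.03 to -0.81. Both kept KMO probe sets stayed negative in each alternative run. The cause of these shifts in counts was not tested. With 3 arrays a group, TDO2 205943_at and QPRT 242414_at came near the threshold at a small within-group spread. Of kept probe sets, 90.2% and 92.4% had a larger pooled SD than these. At a larger spread KYNU 210663_s_at, with a log2 fold change of -0.22, had an adjusted p of 0.200 in limma. Levels under a mean of 4 cannot be compared.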
